A study of Rattus norvegicus with 10 samples.

Results

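The genes described here encode the subunits of the mitochondrial respiratory chain and ATP synthase, together with a few close relatives that carry the same family names. They were found by symbol, as the genes starting with Nduf (assembly factors left out), Uqcr, Cox4 to Cox8 or Atp5, together with Sdha, Sdhb, Sdhc, Sdhd, Cyc1 and Cycs, among probe sets annotated with a single gene. This gave 81 of the 14217 genes named on the array, with 36 in complex I, 4 in complex II, 8 in complex III, 17 in complex IV and 16 in complex V. The rule used names only and no measured value, although it was set with earlier results of these data known. Each gene was read from its probe set with the highest mean signal. No probe set carried Cycs as its sole symbol, so cytochrome c was not analysed here, and 9 probe sets shared between a subunit gene and another gene or pseudogene were not used.

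RNA came from the hypothalamic paraventricular nucleus of male Sprague Dawley rats aged 10 to 12 weeks, either dehydrated for 3 days or kept as controls. Each group had 5 pools of 5 animals. The array was the Affymetrix Rat Genome 230 2.0, used once per pool, which made 10 arrays for 50 animals. No transgene or other treatment is named for either group, and the spread given below is that between pools, not between animals. The sample labels name the paraventricular nucleus, although the design text names the supraoptic nucleus. The labels were followed, and no array labelled as supraoptic was available for comparison. The nucleus's defining peptide transcripts were present on all arrays, with signals of 2853 to 5698 for vasopressin (Avp), 3631 to 5499 for oxytocin (Oxt), 183 to 448 for Crh and 587 to 716 for Trh. These markers were not level between the groups, and their values by group are given with those of the other cell types. Otp and Pou3f2, transcription factors of this lineage, had mean signals of 9.95 and 0.67, both under the level needed for testing. Values are linear probe set signals scaled by the authors to a common mean per array, and a signal of one probe set cannot be set against that of another.

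The respiratory chain passes electrons from NADH (complex I) and succinate (complex II) through ubiquinone, complex III and cytochrome c to oxygen at complex IV. Complexes I, III and IV pump protons across the inner mitochondrial membrane, and complex V uses the gradient to make ATP. Most subunits are encoded in the nucleus, a few core ones in mitochondrial DNA. Neurons depend on this pathway for the ATP that drives their ion pumps, and magnocellular neurons of the paraventricular nucleus fire at higher rates when the animal is short of water. The comparison of dehydrated with control pools asks which transcripts of the nucleus differ after that stimulus.

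The subunit transcripts differed little between dehydrated and control rats. Of the 81 genes, 77 reached the signal needed for testing (a mean of 24.1 over all arrays), and 0 of them passed the threshold in limma (Benjamini-Hochberg adjusted p under 0.05 over all 18629 probe sets tested), where 0.58% of all probe sets passed (0.397% higher and 0.183% lower in dehydrated pools). The smallest adjusted p of a subunit gene was 0.224. Without adjustment 6 of the 77 (7.79%) had p under 0.05, all of them higher in dehydrated pools. Of all probe sets 12.7% did, with 6.7% higher. Log2 differences (dehydrated minus control) ran from -0.31 for Ndufb8 to 0.19 for Ndufv3, with 46 above and 31 below 0 and a median of 0.028. The split depended on the scaling of the arrays: 54 were above and 23 below 0 with median centring, and 36 above and 41 below with quantile normalization, where the median was -0.0077. Over all probe sets tested the median was -0.0048 and 48.8% were above 0. In whole tissue, fewer cells of a type and less RNA per cell cannot be told apart.

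Their signals were bright and even between pools, so the intervals around these differences were narrow. The median coefficient of variation between pools was 5.75% in dehydrated and 5.59% in control pools, against 12.1% in each group over all probe sets tested. Among all 1720 probe sets with a mean signal of 500 or more it was 6.64% and 6.47%. The 95% interval of the log2 difference lay within 0.25 of 0 for 64 of the 77 genes, and within 0.5 of 0 for 76, the exception being Ndufb8. Over all probe sets 21.7% had an interval within 0.25 of 0. At a mean signal of 500 or more this held for 61 of 67 subunit genes and for 1170 of 1720 probe sets in all. Among these brighter probe sets 43 of the 67 subunit genes, or 64.2%, were above 0, where 60.1% of all 1720 were.

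**Figure D1:**
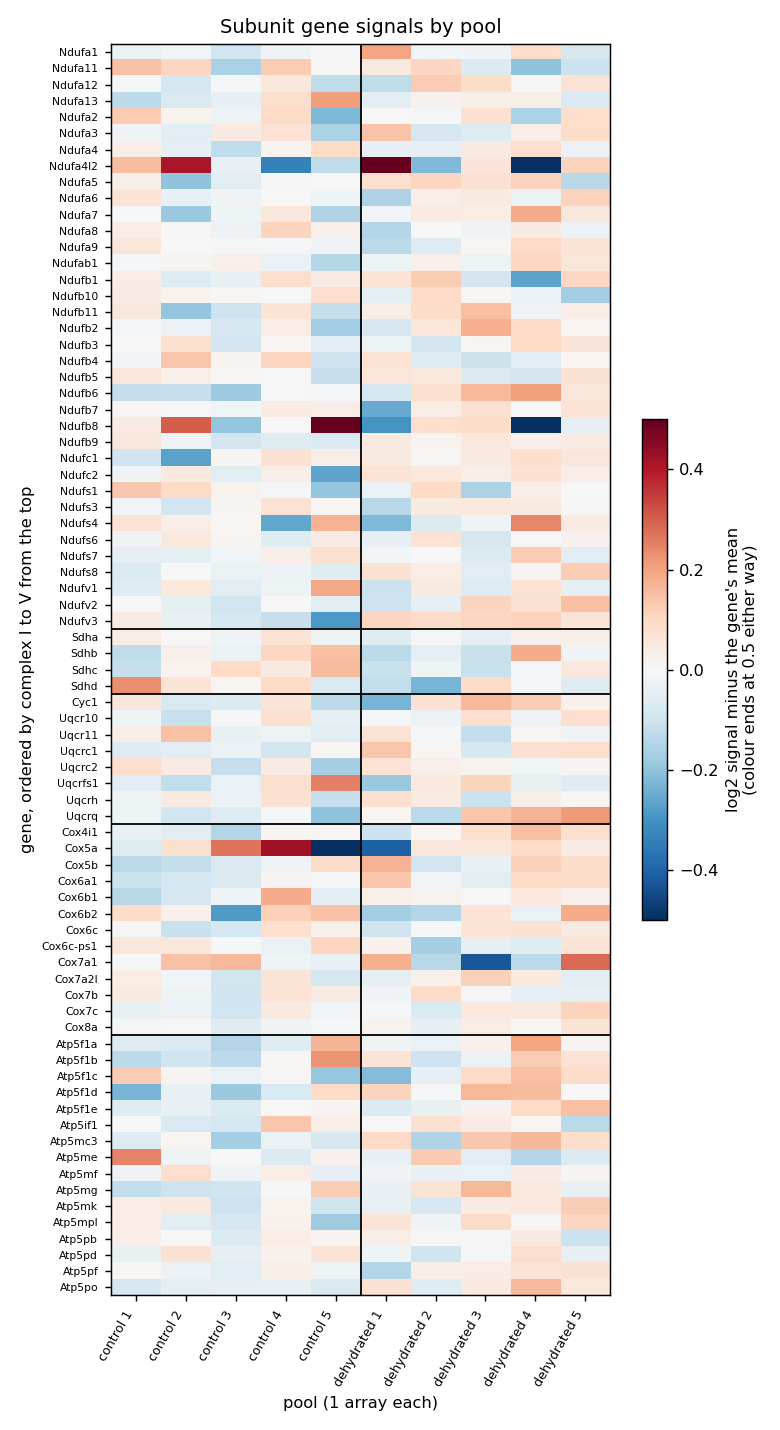
Log2 signal of each of the 77 tested subunit genes (rows, in blocks from complex I at the top to complex V) in each pool (columns, 5 control and then 5 dehydrated), as the difference from the gene's mean over the 10 arrays, with red above and blue below that mean and the colour scale ending at 0.5. Most rows are pale throughout, the rows of Ndufa4l2, Ndufb8, Cox5a and Cox7a1 vary most between pools of the same group, and Ndufv3 is the single row with all dehydrated pools above all control pools.

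In complex I, which takes electrons from NADH, 36 genes were tested, with 21 differences above and 15 below 0 and a median of 0.0075 (17 above and 19 below 0 with quantile normalization). The 6 measured genes of the catalytic core (Ndufs1, Ndufs3, Ndufs7, Ndufs8, Ndufv1 and Ndufv2) lay between -0.041 and 0.078, and all 6 intervals lay within 0.25 of 0. Ndufs1, the largest iron-sulphur subunit, had signals of 584.9, 642.6, 537.0, 613.9 and 599.5 in dehydrated and 658.3, 643.1, 606.0, 596.9 and 523.9 in control pools. The groups overlapped over most of their range, with a log2 difference of -0.022 ± 0.070 (SE of the limma fit, adjusted p = 0.925). Ndufv1, which binds NADH and the flavin cofactor, had means of 544 ± 29.0 and 560.1 ± 42.8 (SD, n = 5 each), a log2 difference of -0.041 ± 0.065.

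The gene that stood furthest from 0 upwards was an accessory one. Ndufv3, a small accessory subunit of the NADH-oxidising module, had signals of 440.5, 436.9, 440.7, 443.8 and 427.5 in dehydrated pools and 420.9, 398.5, 384.8, 377.6 and 334.9 in control pools. All 5 dehydrated values lay above all 5 control values, the highest control being pool 1 and the lowest pool 5, and the dehydrated values were close together. The log2 difference was 0.19 ± 0.065, or 14.4% higher with a 95% interval from 3.93% to 25.9%, and did not pass (unadjusted p = 0.0089, adjusted p = 0.224 in limma). It was the sole gene of the 77 whose groups did not overlap, where 3.36% of all probe sets had such groups (1.94% higher and 1.42% lower in dehydrated pools). A second, dimmer probe set of Ndufv3 had 59.6, 60.9, 67.6, 54.7 and 62.9 in dehydrated and 39.5, 40.9, 56.5, 57.0 and 43.3 in control pools. There the groups overlapped through dehydrated pool 4 and control pools 3 and 4, and the log2 difference was 0.36 ± 0.13 (adjusted p = 0.253). Over the alternatives tried, the difference of Ndufv3 ran from 0.15 to 0.27 and its adjusted p from 0.127 to 0.360.

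Among the other accessory subunits of complex I, Ndufb6, part of the membrane arm, had signals of 899.7, 1008.9, 1072.7, 1101.6 and 994.1 in dehydrated and 878.3, 880.5, 840.8, 953.3 and 951.3 in control pools. Of the dehydrated pools 1 lay within the control range and 4 above it. The log2 difference was 0.17 ± 0.063 (unadjusted p = 0.0153, adjusted p = 0.269). Ndufb8, another membrane-arm subunit, was read from a dim probe set, with 75.5, 100, 100.2, 60.6 and 90.9 in dehydrated and 96.6, 116.6, 81.5, 93.7 and 146.5 in control pools. The groups overlapped, and the interval of its log2 difference, -0.64 to 0.024, was the lowest of any subunit gene. Ndufa7 had 600.6 ± 32.0 in dehydrated and 551 ± 39.1 in control pools (log2 0.12 ± 0.064, adjusted p = 0.429), while its second probe set differed by -0.037. Ndufa4, which carries a complex I name but is known as a component of complex IV, differed by 0.0088 ± 0.053, and its hypoxia-responsive relative Ndufa4l2 by -0.022 with an interval from -0.46 to 0.42.

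**Figure D2:**
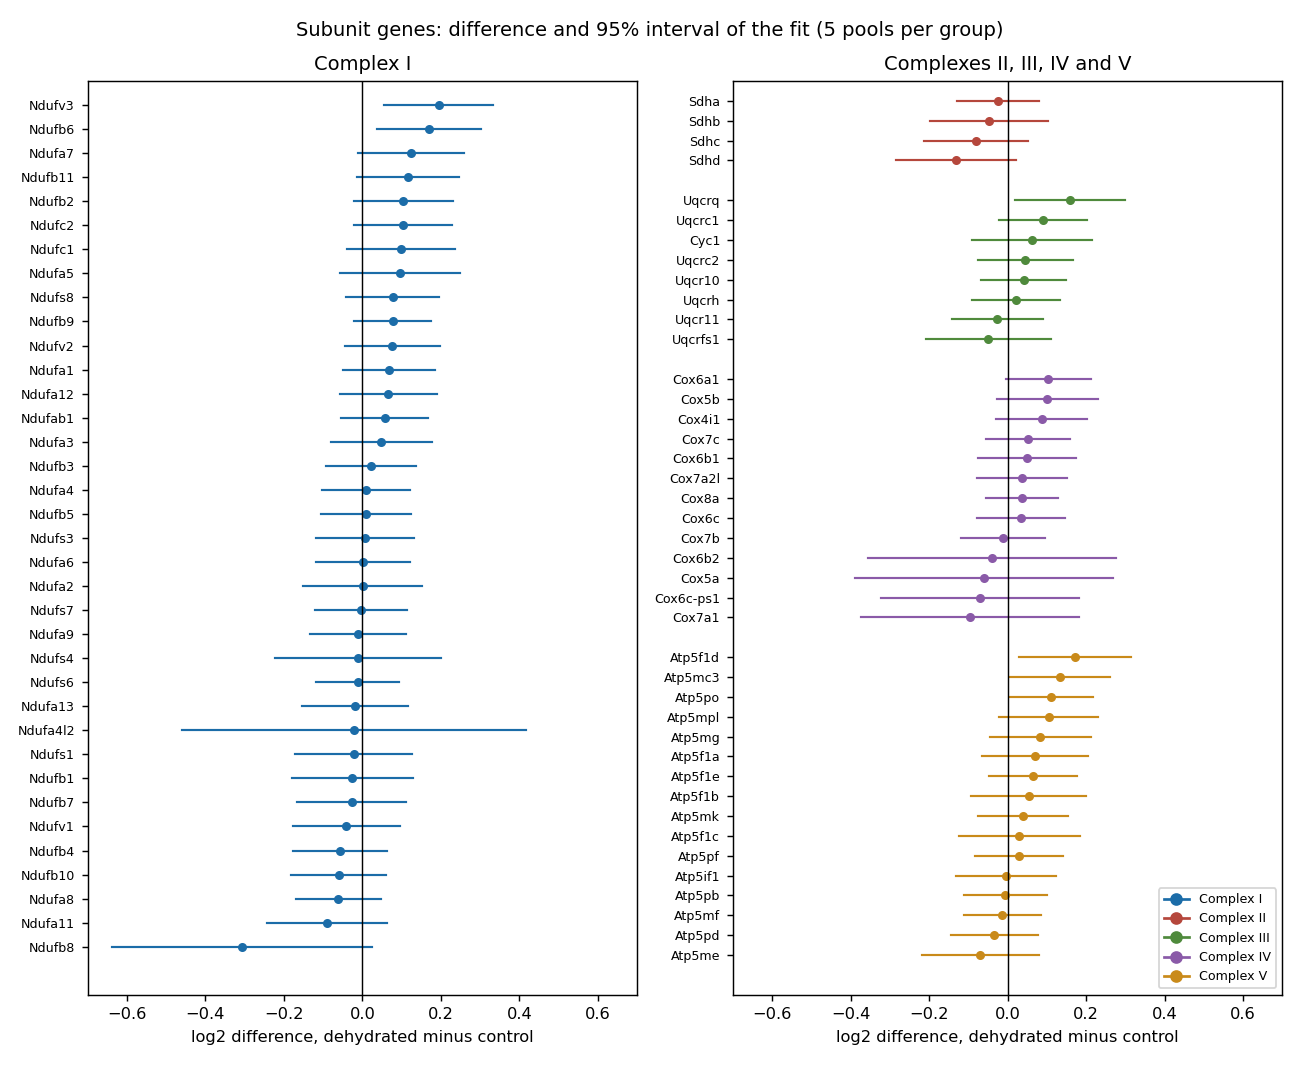
Log2 difference (dehydrated minus control, x axis) of the 77 tested subunit genes with the 95% interval of the limma fit (bars), complex I on the left and complexes II to V on the right, ordered by size within a complex. Nearly all points lie between -0.15 and 0.2, wide bars belong to dim probe sets such as those of Ndufb8, Ndufa4l2 and Cox5a, and all 4 points of complex II lie left of 0.

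Complex II, succinate dehydrogenase, has 4 subunits, and all 4 had differences below 0, under each scaling of the arrays as well, with a median of -0.064. Sdha, the flavoprotein that oxidises succinate, had 928.1, 963.9, 936.2, 984.6 and 988.4 in dehydrated and 993.1, 969.0, 952.9, 1014.9 and 954.6 in control pools. These values overlapped, and the log2 difference was -0.025 ± 0.049 (adjusted p = 0.871), with an interval from 8.53% lower to 5.64% higher. The iron-sulphur subunit Sdhb had means of 661 ± 60.5 and 683 ± 51.6 (log2 -0.048 ± 0.071, adjusted p = 0.818). The membrane anchor Sdhc had 588 ± 28.9 and 623 ± 43.8 (log2 -0.080 ± 0.063, adjusted p = 0.623). The other anchor, Sdhd, had 541.4, 500.8, 629.8, 586.6 and 562.9 in dehydrated and 692.3, 617.0, 593.7, 631.9 and 558.0 in control pools. It was the furthest below 0 of the complex, at -0.13 ± 0.072 (adjusted p = 0.459), with the lowest values in dehydrated pools 1 and 2. A second probe set of Sdhd, with 281 ± 31.4 and 278 ± 25.2, differed by 0.013 ± 0.086, so the direction of Sdhd was that of a single probe set. Complex II is 4 genes measured in the same pools, and whether it differed from the other complexes was not tested.

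Complex III, which hands electrons from ubiquinol to cytochrome c, had 8 genes with 6 differences above 0 (5 with quantile normalization) and a median of 0.043. Uqcrq, a small subunit near the quinone site, had the largest, with 1623.2, 1465.2, 1773.4, 1814.8 and 1866.6 in dehydrated and 1586.4, 1506.9, 1539.9, 1601.4 and 1399.1 in control pools. Dehydrated pool 2 lay within the control range and the other dehydrated pools above it, and the log2 difference of 0.16 ± 0.066 did not pass (unadjusted p = 0.0293, adjusted p = 0.334). The electron-carrying members were nearer to 0. Cyc1, cytochrome c1, had 930.4 ± 95.2 and 889 ± 53.8 (log2 0.061 ± 0.072), and Uqcrfs1, the Rieske iron-sulphur protein, 706 ± 55.1 and 732 ± 77.9 (log2 -0.049 ± 0.075). The core protein Uqcrc1 differed by 0.091 ± 0.053 (adjusted p = 0.489). Its partner Uqcrc2 differed by 0.045 ± 0.057, and by -0.0076 in a second, dimmer probe set.

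Complex IV, cytochrome c oxidase, reduces oxygen, and several of its subunits exist in a general form and in forms made mainly in muscle, lung or testis. Of 17 genes 13 were tested, with 8 differences above 0 and a median of 0.036, which were 6 and -0.017 with quantile normalization. Cox4i1, the general form of subunit IV, had 2226.0, 2415.0, 2538.3, 2661.2 and 2544.8 in dehydrated and 2340.4, 2311.7, 2167.5, 2417.3 and 2406.4 in control pools. Dehydrated pool 1 was low and the groups overlapped, with a log2 difference of 0.087 ± 0.055 (adjusted p = 0.525). Cox6a1 was at 0.10 ± 0.051 (adjusted p = 0.415), with 2275 ± 128 against 2115 ± 77.9, and Cox5b at 0.10 ± 0.061 (adjusted p = 0.508). Cox5a, which sits beside Cox5b in the complex, had a dim probe set whose control values ran from 70.9 to 144, and its interval of -0.39 to 0.27 was wide. A much brighter probe set, with a mean signal of 1690, is annotated to Cox5a and another gene and was therefore not used. It differed by 0.039, with an interval from -0.069 to 0.15, so the dimness and spread given for Cox5a are those of the probe set used. The supercomplex-associated relative Cox7a2l differed by 0.036 ± 0.054.

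The 4 genes under the signal needed for testing were all tissue forms of complex IV subunits. Cox8b and Cox6a2, forms of heart and skeletal muscle, had mean signals of 3.37 and 9.95, Cox7b2, the testis form of another, had 9.1, and Cox4i2, known from lung and responsive to low oxygen, had 21.2. Cox4i2 had 34.2, 20.8, 21.5, 16.6 and 19.7 in dehydrated and 22.2, 18.4, 22.5, 15.1 and 20.8 in control pools, which overlapped apart from dehydrated pool 1. The muscle form Cox7a1 was bright enough to test, with signals of 59.6 ± 12.2 and 63.1 ± 4.54 (log2 -0.096 ± 0.13, adjusted p = 0.803). Of 6 muscle markers measured in the same pools 3 were bright enough to test (Acta1, Myh7 and Tnni1), with 2 differences above and 1 below 0, and 0 passed in limma, with 0 at an unadjusted p under 0.05. Summed signals of the 6 were 187.0 to 231.3 in dehydrated and 164.3 to 207.8 in control pools. Among the dim ones, Ckm had means of 6.16 and 7.52 and Mb of 13.1 and 6.04. The testis form Cox6b2 was at -0.040 and the pseudogene Cox6c-ps1 at -0.070, both from dim probe sets.

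Complex V, ATP synthase, had 16 genes, with 11 differences above 0 and a median of 0.046, which were 8 and 0.0082 with quantile normalization. All 5 subunits of its catalytic F1 part were above 0 (4 with quantile normalization), with a median of 0.065, and none passed. Atp5f1b, the catalytic beta subunit, had 2365.0, 2104.2, 2209.9, 2464.4 and 2376.7 in dehydrated and 2064.7, 2104.7, 2060.7, 2265.1 and 2640.2 in control pools. Control pool 5 was the highest of all 10, and the log2 difference was 0.053 ± 0.069 (adjusted p = 0.789). Atp5f1a, the alpha subunit, differed by 0.071 ± 0.064 (adjusted p = 0.680). Control pool 5 was again high there, at 1850 against 1486 to 1578 in the other controls.

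Atp5f1d, the delta subunit of the rotating central stalk, had the largest difference of complex V, with 849.2, 782.1, 881.5, 876.7 and 786.8 in dehydrated and 668.1, 765.8, 691.4, 746.1 and 842.1 in control pools. Control pool 5 lay among the dehydrated values and the other controls below them. The log2 difference was 0.17 ± 0.068, or 12.6% higher with an interval from 2.00% to 24.3% (unadjusted p = 0.0216, adjusted p = 0.302). Atp5mc3, which encodes a c-ring subunit, had 3005 ± 248 and 2733 ± 125 (log2 0.13 ± 0.060, adjusted p = 0.368). Its dehydrated pool 2, at 2578, lay among the control values, and the other dehydrated pools, at 3039 to 3204, lay above them. The relatives Atp5mc1 and Atp5mc2 had probe sets shared with another gene, which were not used. Those differed by -0.015 and -0.11, with intervals from -0.16 to 0.13 and from -0.34 to 0.11. Atp5po, a part of the peripheral stalk, had 1676.6, 1524.2, 1645.3, 1776.9 and 1649.2 in dehydrated against 1500.6, 1541.8, 1545.2, 1548.7 and 1511.8 in control pools (log2 0.11 ± 0.050, adjusted p = 0.369). The control values were tightly grouped, and of the dehydrated pools only pool 2 lay within their range. Atp5me, the subunit e of synthase dimers, was lowest at -0.069 ± 0.071, and Atp5if1, the inhibitor of ATP hydrolysis, was at -0.0035 ± 0.060, with a dim second probe set at 0.24.

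By pool, no complex separated the groups. The per-pool mean of centred log2 signals ran from -0.013 to 0.024 in dehydrated and from -0.045 to 0.015 in control pools for complex I, and from -0.0074 to 0.044 and -0.056 to 0.027 for complex III. For complex IV the ranges were -0.037 to 0.076 and -0.047 to 0.071, and for complex V -0.022 to 0.079 and -0.084 to 0.0051. Complex II lay lower in dehydrated pools, at -0.11, -0.077, -0.044, 0.049 and -0.00021 in pools 1 to 5, against 0.0065 to 0.078 in control pools. Dehydrated pool 4 lay within the control range and the other dehydrated pools below it. These means are descriptions of the pools, with no test, because genes of a complex are not replicates.

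**Figure D3:**
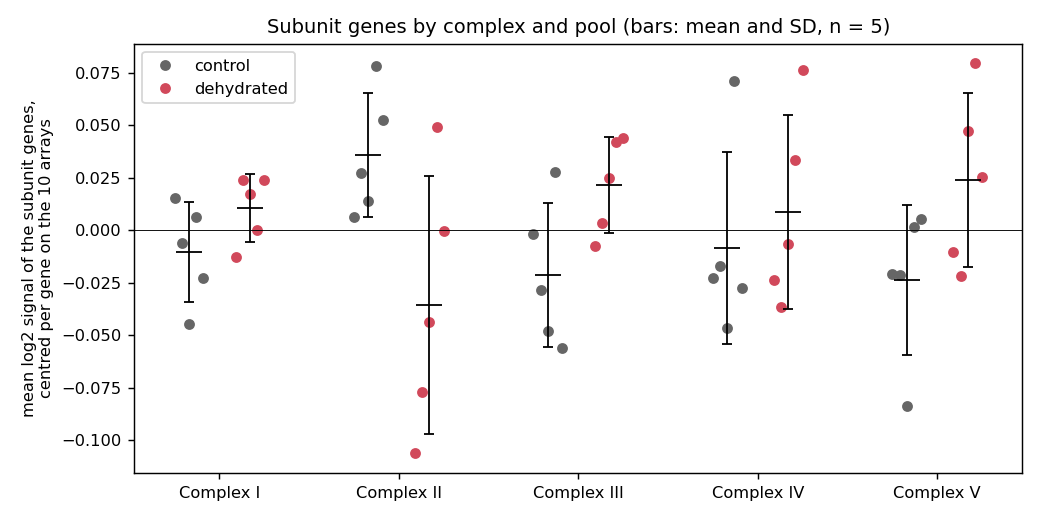
Mean over the tested subunit genes of a complex (x axis) of the log2 signal centred per gene on the 10 arrays (y axis), for each control (grey) and dehydrated (red) pool, with bars for the mean and SD of 5 pools. The groups overlap in every complex, and the distance between group means is largest in complex II, at -0.071, and positive in the others, from 0.017 in complex IV to 0.048 in complex V.

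Genes of a complex varied together between pools only weakly. After subtraction of each group's mean, the mean pairwise Pearson correlation over the 10 arrays was 0.081 among all 77 genes, 0.044 in complex I, 0.084 in complex II, -0.027 in complex III, 0.170 in complex IV and 0.162 in complex V. It was 0.042 among all 1720 probe sets with a signal of 500 or more and 0.00081 over all probe sets tested. Without control pool 5 it was 0.099 among all 77 genes and 0.045 among the 1720 probe sets. In complexes I to V it was then 0.051, 0.162, -0.041, 0.190 and 0.221. All these values share the same arrays and their scaling, and are given as descriptions. Of 8 genes with more than 1 probe set, 7 further probe sets were tested, of which 3 had the direction of the brighter one and 4 the opposite direction, and 0 passed the threshold in limma, with 1, that of Ndufv3, at an unadjusted p under 0.05. The tested ones had mean signals from 24.4 to 279, and the other 2 were too dim to test.

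**Figure D4:**
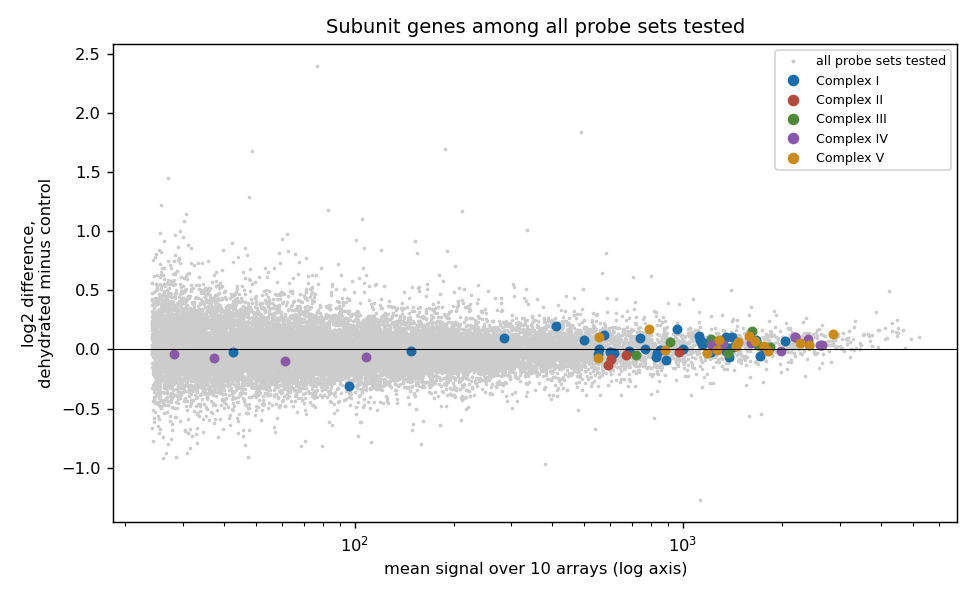
Log2 difference (dehydrated minus control, y axis) against mean signal over the 10 arrays (log x axis) for all 18629 probe sets tested (grey) and the 77 subunit genes (coloured by complex). The subunit genes lie mostly at the bright end, with a median signal of 1186, in the narrow band around 0 where most bright probe sets lie, while the largest differences on the array belong to other genes.

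Promoter sequence played no part in the choice by name. RefSeq promoter windows (GRCr8, 250 bases before to 50 after the annotated start) were matched for 72 of the 81 genes, and exact letters were searched on both strands. The NRF1 letters (GCGCA, any base, then GCGC), after a regulator of mitochondrial biogenesis, were found in 13 (18.1%), against 6.09% of 19005 protein-coding promoters and 4.71% of all 27457. CCGGAAG, letters of the ETS family to which GABPA belongs, was found in 20 (27.8%), against 11.2% and 9.22%. AAGATGG, letters of YY1, was found in 19 (26.4%), against 7.58% and 7.30%. CCAAT, a general promoter element, was found in 25 (34.7%), against 38.4% and 37.7%. At least 1 of the first 3 was present in 42 of the 72 (58.3%) and in 22.0% of protein-coding promoters. These shares are descriptions, and no enrichment was tested. Base composition was not matched, overlaps between matches of different motifs were kept, and a match is not a bound site.

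Genes with and without these letters had medians close to 0. The median log2 difference was 0.067 for the 13 tested genes with NRF1 letters and 0.022 for the 56 without. It was 0.032 for 20 with and 0.022 for 49 without ETS letters, and 0.00056 for 19 with and 0.038 for 50 without YY1 letters. For CCAAT it was 0.039 for 23 with and 0.0088 for 46 without. The 150 bases before the start are shown for 4 genes described above, 1 each of complexes I, II, III and V, as examples whose NRF1 or ETS letters lie in that stretch. Capitals mark the letters of the motifs named above on either strand.
Ndufv3 (chr20:9613636-9613785, forward strand): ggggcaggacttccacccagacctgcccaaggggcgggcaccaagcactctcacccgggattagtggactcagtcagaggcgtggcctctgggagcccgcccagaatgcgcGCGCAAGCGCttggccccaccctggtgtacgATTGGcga
Sdha (chr1:30764403-30764552, forward strand): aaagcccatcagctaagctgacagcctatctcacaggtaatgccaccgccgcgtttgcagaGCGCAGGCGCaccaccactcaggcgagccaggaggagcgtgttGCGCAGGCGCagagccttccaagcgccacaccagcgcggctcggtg
Uqcrq (chr10:38089979-38090128, reverse strand): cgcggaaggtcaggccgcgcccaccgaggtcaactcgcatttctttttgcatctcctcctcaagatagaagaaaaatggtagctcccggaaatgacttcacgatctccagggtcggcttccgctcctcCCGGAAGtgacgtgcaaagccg
Atp5po (chr11:44657484-44657633, reverse strand): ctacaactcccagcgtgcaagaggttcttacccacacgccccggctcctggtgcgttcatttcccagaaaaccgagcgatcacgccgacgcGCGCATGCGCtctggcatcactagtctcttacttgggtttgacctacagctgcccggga
Ndufv3, Sdha and Atp5po carry NRF1 letters in this stretch and Uqcrq carries ETS letters. The log2 differences given above were 0.19, -0.025, 0.11 and 0.16 for Ndufv3, Sdha, Atp5po and Uqcrq. These examples were picked for their letters. Atp5f1d, Ndufb6 and Ndufa7, at 0.17, 0.17 and 0.12, had no letters of any motif searched in their whole windows.

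Other genes of energy metabolism were read from lists. Beside the counts below, 0.58% of all probe sets tested passed, 12.7% had an unadjusted p under 0.05 and 48.8% were above 0. Of 39 tested assembly factors 0 passed in limma, with 13 above and 26 below 0, a median of -0.043 and 4 at an unadjusted p under 0.05. The smallest p were those of Sco1, a copper chaperone of complex IV, at 0.31 ± 0.12 (adjusted p = 0.286), and Timmdc1, a complex I assembly factor, at 0.16 ± 0.063 (adjusted p = 0.298). Of 21 regulators of mitochondrial biogenesis 0 passed, with 6 above and 15 below 0, a median of -0.077 and 1 at an unadjusted p under 0.05. Mterf1, a mitochondrial transcription termination factor, was at -0.21 ± 0.098, and Gabpa, an ETS factor, at -0.28 ± 0.14 (adjusted p = 0.383 and 0.415). For 23 enzymes of the tricarboxylic acid cycle and pyruvate oxidation the median was 0.011, with 0 calls and 0 at an unadjusted p under 0.05. The smallest p there were those of Pdk4, a kinase that inhibits pyruvate dehydrogenase, at 0.28 ± 0.14, and Mpc2, of the pyruvate carrier, at 0.085 ± 0.055. The 25 import and membrane genes had a median of 0.034 and 0 calls, with 2 at an unadjusted p under 0.05, the chaperonin Hspe1 at 0.17 ± 0.072 and Timm9 at 0.14 ± 0.066. The 11 antioxidant enzymes had a median of -0.0074 and 0 calls, with 4 at an unadjusted p under 0.05, Txnrd2 at -0.32 ± 0.13 and the superoxide dismutase Sod1 at 0.12 ± 0.054 having the smallest.

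Calls were found for lactate dehydrogenase A and an adenylate kinase. For comparison, 0.58% of all probe sets tested passed the threshold, and 3.36% had groups that did not overlap. Ldha, the subunit of lactate dehydrogenase that favours lactate formation, had 939.5, 952.7, 966.2, 986.9 and 896.4 in dehydrated and 792.4, 750, 781.7, 856.6 and 749.2 in control pools. All dehydrated values lay above all control values, and Ldha rose by 0.27 ± 0.055 on the log2 scale, or by 20.6% (adjusted p = 0.0353). Ldha was the sole call among 18 tested glycolysis genes, of which 8 were above and 10 below 0 with a median of -0.024, and Aldoc was next in order of p at 0.13 ± 0.062 (adjusted p = 0.389). The call of Ldha ended on removal of dehydrated pool 1, 2, 3 or 4 or control pool 1, 2 or 3 (adjusted p up to 0.102), without a filter (0.0692) and without the variance trend (0.155). Ak4, a mitochondrial adenylate kinase, had 164.2, 211.1, 180.6, 201.2 and 177.4 in dehydrated and 271, 248.7, 271.5, 233.5 and 218.3 in control pools. All dehydrated values lay below all control values, and Ak4 fell by 0.41 ± 0.087 on the log2 scale (adjusted p = 0.0451). The call of Ak4 ended on removal of any array other than dehydrated pool 2 and control pool 5 (adjusted p up to 0.123) and under 4 other settings, from 0.0527 with quantile normalization to 0.118 without the variance trend. Among the 16 tested carriers, uncoupling proteins and kinases Ak4 was the sole call, with a median of 0.039, and the phosphate carrier Slc25a3 was at 0.15 ± 0.055 (adjusted p = 0.278). Of the subunits encoded in mitochondrial DNA 2 had a probe set of their own, COX1 at 0.095 ± 0.065 and COX2 at 0.11 ± 0.068 (adjusted p = 0.563 and 0.524), both among the brightest signals measured, and their median turned to -0.022 with quantile normalization.

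**Figure D5:**
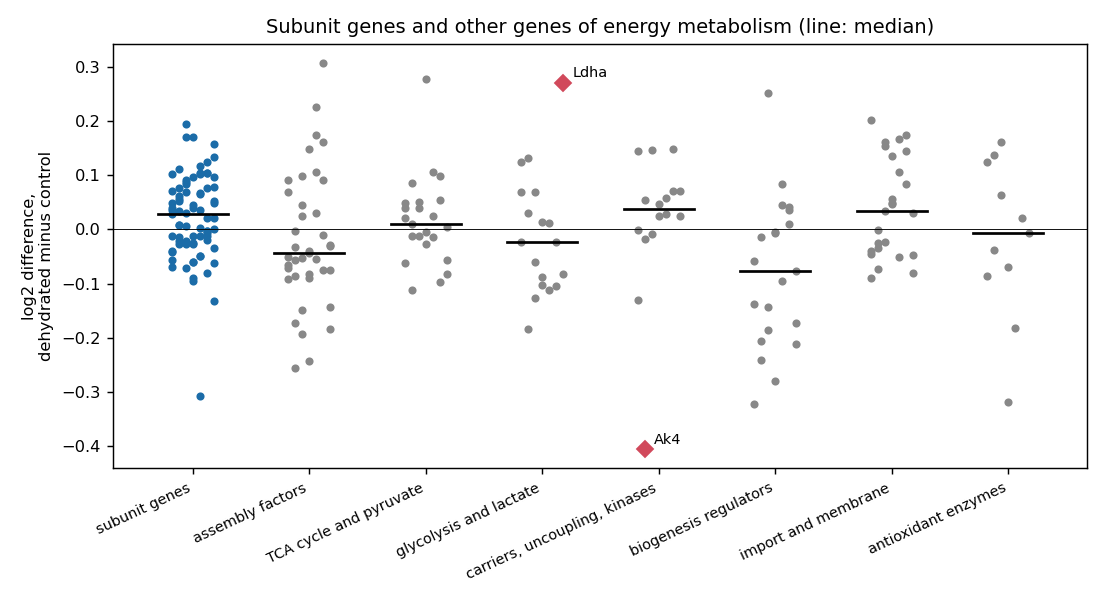
Log2 difference (dehydrated minus control, y axis) of each tested gene in the subunit group and in 7 lists of other energy metabolism genes (x axis), with a line at each median and red diamonds for genes past the threshold. The subunit genes have their median at 0.028 and hold no call, and Ldha at 0.27 and Ak4 at -0.41 are the calls among the other lists.

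Some features of the pools moved with the groups or set single arrays apart. Control pool 5 lay at 37.2 on the first principal component (20.7% of the variance) against -14.4 to 3.69 for the others. Its sample number in the labels also lies outside the consecutive run of the other control samples, and the labels do not say what the numbers stand for. Without it 0 subunit genes passed, 47 of 77 were above 0 and the median was 0.019. Beside the marker counts below, 0.58% of all probe sets tested passed and 12.7% had an unadjusted p under 0.05. Among the same probe sets 48.8% were above 0 and 3.36% had groups that did not overlap. The markers of the nucleus itself were above 0 for 7 of 7 tested, with a median of 0.35 and 4 at an unadjusted p under 0.05, and sums over all 9 measured of 11458 to 14407 in dehydrated and 8903 to 11761 in control pools. Pdyn, which encodes prodynorphin, rose by 0.81 on the log2 scale (limma adjusted p = 0.000572), and Avp was at 0.50 ± 0.11 (adjusted p = 0.0504). The dim Otp was not tested, and its groups did not overlap (9.3 to 18.8 against 1.1 to 7.7). Oligodendrocyte markers, all 10 below 0 (9 with quantile normalization) with a median of -0.29, had summed signals of 7273 to 7595 in dehydrated and 7848 to 9506 in control pools, which did not overlap. Of these 10, 1 passed in limma and 8 had an unadjusted p under 0.05. Neuronal markers had 4 of 12 above 0, a median of -0.10 and sums of 13623 to 15560 and 14877 to 15783. Of the 12, 0 passed and 3 had an unadjusted p under 0.05. Astrocyte sums were 11071 to 12461 and 11436 to 12828, microglial sums 780 to 882 and 854 to 979, endothelial sums 1174 to 1312 and 986 to 1298, and red cell sums 314 to 595 and 584 to 786. In limma 0 astrocyte, microglial or endothelial markers passed, with 3 of 8, 1 of 6 and 1 of 9 tested at an unadjusted p under 0.05. Their medians were -0.058, -0.13 and 0.17. Of 2 tested red cell markers 1 passed, lower in dehydrated pools (adjusted p = 0.0305 in limma), and their median was -0.53. Of 5 tested markers of neighbouring hypothalamic nuclei 2 were above and 3 below 0 (1 above with quantile normalization), and 0 passed in limma, with 3 at an unadjusted p under 0.05. Sums over all 7 measured overlapped, at 3540 to 6190 and 4302 to 7206. Those below 0 were Hcrt at -1.28, Hdc at -0.67 and Nkx2-1 at -0.50, and those above were Pmch at 0.018 and Npy at 0.052. The part of these markers in the differences of subunit genes was not tested.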

How the data were processed

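Probe set signals of 10 arrays (5 dehydrated and 5 control pools) were analysed. The deposited values were linear intensity signals made by the authors with GCOS 1.2, per the submitters' processing notes. Not given in the sources used here is how signals and background were computed. The mean after trimming 2% at each end was 100.03 on every array and medians ran from 36.4 to 39.1, so the authors had scaled the arrays. The number of arrays limits the precision.

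Of 31099 probe sets, 57 controls were left out (they held the 2 missing values). Of the other 31042, 20826 had 1 gene symbol in the platform annotation, 436 several and 9780 were not listed. Symbols were brought up to date through Entrez identifiers for 20758, which changed none of the 81 genes. The signals were used as log2(signal + 3.72), the pseudocount being 0.1 of the median array median. Differences are on that scale, which understates dim probe sets. Probe sets with a mean at or above the 40th percentile (24.1) were kept, which left 18629. Groups were compared, two-sided, with lmFit and eBayes (trend) of limma 3.58.1 in R 4.3.3, with Benjamini-Hochberg adjustment over all of them and a threshold of 0.05. Groups came from source labels, replicates were numbered in accession order, and no label names a hybridisation batch, so none was fitted. Sample numbers in the labels run in separate blocks for the groups, with control pool 5 apart from both, so any batch they follow cannot be told apart from the groups.

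The genes, the lists (298 entries, 260 matched) and the tests were chosen with earlier results of these data known. Genes described with values were, per complex, those with the 3 smallest p, the largest rise and the largest fall, those with groups apart or with other probe sets of opposite direction, and a set fixed by name. Of each list, calls and the 2 smallest p are named. Some further genes (Ndufa4l2, Cox7a2l, Cox6b2, Cox7b2, Cox6c-ps1) were named after their values were seen. Alternatives were other scalings, pseudocounts, filters and variance models, array weights, each array left out, and gene means. For the count and medians of the subunit genes, the symbols as annotated were listed as a further alternative. On simulated arrays with the spread of these 18629 probe sets, true log2 differences of 0.4, 0.8 and 1.6 were called for 33.7%, 82.5% and 98.5% of changed probe sets. The changed probe sets were drawn from all of those tested, whose median SE was 0.115, against 0.059 for the subunit genes. Differences smaller than 0.4 were not simulated, so these shares do not give the recovery for the subunit genes.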

Additional observations from a re-analysis of the deposited data

Results flagged for a closer look

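Among the subunit genes and complexes, 176 groups of 5 pools were looked at for a pool far from the rest, by Dixon's ratio of the gap to the range, and 15 stood out. Chance alone marks about 5% of such groups. Dehydrated pool 1 accounted for 5 of them. It was low for Atp5pf (1310 against 1482 to 1531 in the other dehydrated pools), Cox5a (79.3 against 109.7 to 114.4), Ndufb7 (515.5 against 613 to 649) and Ndufs3 (504.6 against 559 to 577), and high for the dim Cox4i2 (34.2 against 16.6 to 21.5).

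Dehydrated pool 2 was low for Atp5mc3 (2578 against 3039 to 3204) and high for Cox7b (2117 against 1915 to 1968). Dehydrated pool 5 was low for Atp5pb (1176 against 1274 to 1309) and Ndufa5 (257.8 against 299.9 to 307.6). Dehydrated pool 4 was high for Atp5f1a (1888 against 1610 to 1675), as was control pool 5 for the same gene (1850 against 1486 to 1578). Control pool 1 was high for Atp5me (652 against 523 to 556) and Ndufa9 (713 against 675 to 685). Control pool 3 was low for Cox8a (2511 against 2588 to 2615). For the per-pool mean of complex IV, control pool 4 stood at 0.071 and the next control pool at -0.017.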

How the results depend on the processing

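The count of 0 subunit genes past the threshold held under all 21 alternatives run for it, with a smallest adjusted p of 0.106 in limma without dehydrated replicate 2. These 21 include the symbols as annotated, which gave the same genes and the same fit and so could not change the count. The number of all probe sets past the threshold was 108, and it was 64 without a filter, 45 without the variance trend, 201 with array weights and 46 to 148 with an array left out (under 108 by more than 1.5 times without dehydrated replicate 1, 3 or 4 or control replicate 1, 2, 3 or 4). The median of the subunit genes turned from 0.028 to -0.0077 under quantile normalization, where 36 were above and 41 below 0, and was 0.016 to 0.038 with an array left out. Under the same setting the median of complex I turned from 0.0075 to -0.0081 and that of complex IV to -0.017, and those of complexes III and V were 0.022 and 0.0082. With an array left out, complex I ran from -0.00066 to 0.035, complex II from -0.095 to -0.042, complex III from 0.022 to 0.063, complex IV from 0.018 to 0.057 and complex V from 0.026 to 0.077. All 4 complex II genes stayed below 0 under each scaling, pseudocount, filter and left-out array. Of 28 genes named with a test, 22 kept their sign under every alternative. The sign turned under at least 1 alternative for Atp5if1, Cox5a, Ndufa4, Ndufs1, Ndufv1 and Uqcrfs1. For Ndufv1 (0.0019) and Uqcrfs1 (0.0081) this was without control replicate 5 alone, for Ndufs1 and Cox5a in 3 fits each that left out an array, and for Ndufa4 in 4 such fits and under quantile normalization (-0.024). Atp5if1 turned under 6 alternatives, to 0.12 when its dim second probe set was averaged in. The causes were not tested. No paired analysis was possible because the labels carry no replicate numbers that link the groups.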
